A study of Mus musculus with 10 samples.

Results

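Podocytes are the epithelial cells that wrap the capillaries of the glomerulus, and 9 of their genes are described here: Nphs1, Kirrel, Cd2ap, Synpo, Plce1, Ptpro, Podxl, Thsd7a and Wt1. A gene was taken where a row of the array table was annotated with its symbol alone, and all 9 were found, with 1 row each, among 30142 genes with a single symbol. RNA was measured in whole kidneys of 10 mice aged 5 weeks, each on its own Affymetrix whole-transcript array. The 5 knockout mice carried a floxed Lkb1 allele (gene symbol Stk11) and the KspCre transgene, in which the Cdh16 promoter drives Cre in kidney tubules, so that Lkb1 is deleted in tubules and not by design in podocytes. The 5 control mice were littermates with Lkb1flox/+ or Lkb1flox/flox and no KspCre, so an effect of the transgene cannot be told apart from that of the deletion. The floxed line was of mixed background and the KspCre line of C57Bl/6N, and the titles call the knockouts a knockdown.

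The foot processes of neighbouring podocytes are joined by the slit diaphragm, a thin cell junction that is part of the filter between blood and urine. Nephrin (Nphs1) and NEPH1 (Kirrel) span the gap, adaptors such as CD2AP tie them to the actin cytoskeleton, and the transcription factor WT1 sustains podocyte gene expression. Mutations of NPHS1, PLCE1, CD2AP, PTPRO and WT1 in humans cause proteinuria, and THSD7A is a target of autoantibodies in membranous nephropathy. Several of these genes are also used outside podocytes, and a bulk kidney sample holds few podocytes among many tubule cells. In such samples fewer cells of a type and less RNA per cell cannot be told apart.

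Stk11, the targeted gene, averaged 9.18 ± 0.10 in knockouts and 9.43 ± 0.03 in controls (SD, n = 5 each; RMA log2 value), and knockout 5 had the highest knockout value (9.31). RMA is a summary of all probes of a transcript on a log2 scale, and differences below are knockout minus control on that scale. Any pair of arrays correlated at 0.992 to 0.998. The kidney label was met by strong signals of tubule markers, such as uromodulin (Umod, 12.70 ± 0.07 in knockouts and 13.16 ± 0.05 in controls). The podocyte signals also stood above most negative controls. The 9 group means in knockouts exceeded 86.4% to 99.1% of the negative control probe sets, and those in controls 82.7% to 98.9%. Plce1 was at the low end in both groups, and Cd2ap at the high end.

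Plce1, Thsd7a and Kirrel were higher in knockout kidneys, by 1.20 to 1.26-fold, while Nphs1, Ptpro, Podxl, Synpo and Wt1 did not pass the test and Cd2ap lay just outside it. Thus 3 of 9 genes rose and 0 fell by limma at an adjusted p under 0.05, against 5.35% of all genes that rose and 2.67% that fell (8.03% in either direction). Among the 19563 genes brighter than the median negative control, fitted alone, 8.91% rose and 4.72% fell. In that fit 4 of the 9 rose, Cd2ap included, and 0 fell. The median difference was 0.04 over the 9 genes and -0.03 over all genes. The groups did not overlap for Plce1 and Thsd7a, whereas 5.07% of all genes lay wholly higher in knockouts and 3.50% wholly lower. At an unadjusted p under 0.05, Cd2ap was the only further member.

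The promoters of the 3 genes that rose and of Nphs1 are printed so that the start regions of the 3 can be compared. They span 250 bases before to 50 bases after a transcript start in RefSeq (GRCm38.p6, the mm10 build), on the coding strand, with GC boxes (GGGCGG) in capitals. The windows are chr3:87174488-87174787 on the minus strand for Kirrel, chr6:12749204-12749503 on the minus strand for Thsd7a, chr19:38523947-38524246 on the plus strand for Plce1 and chr7:30459808-30460107 on the plus strand for Nphs1. The starts used for Kirrel, Plce1 and Nphs1 lie inside the annotated gene spans (87078593 to 87174777, 38481034 to 38785105 and 30458207 to 30488623), and the 3 spans begin further upstream.
Kirrel: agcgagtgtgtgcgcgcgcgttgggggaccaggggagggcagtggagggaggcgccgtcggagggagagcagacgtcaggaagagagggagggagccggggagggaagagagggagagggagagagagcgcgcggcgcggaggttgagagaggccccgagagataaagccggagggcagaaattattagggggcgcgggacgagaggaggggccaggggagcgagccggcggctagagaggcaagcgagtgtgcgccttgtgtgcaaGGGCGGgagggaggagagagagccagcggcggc
Thsd7a: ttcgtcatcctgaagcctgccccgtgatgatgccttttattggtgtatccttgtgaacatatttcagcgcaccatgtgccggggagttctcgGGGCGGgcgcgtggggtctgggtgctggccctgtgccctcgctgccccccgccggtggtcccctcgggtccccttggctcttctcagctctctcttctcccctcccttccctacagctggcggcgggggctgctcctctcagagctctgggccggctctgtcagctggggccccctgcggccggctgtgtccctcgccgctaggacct
Plce1: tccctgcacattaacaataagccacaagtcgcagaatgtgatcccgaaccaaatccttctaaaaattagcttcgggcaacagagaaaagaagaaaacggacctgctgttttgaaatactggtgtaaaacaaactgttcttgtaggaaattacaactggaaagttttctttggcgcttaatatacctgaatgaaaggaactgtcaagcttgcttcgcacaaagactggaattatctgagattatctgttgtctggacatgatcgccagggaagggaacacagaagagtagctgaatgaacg
Nphs1: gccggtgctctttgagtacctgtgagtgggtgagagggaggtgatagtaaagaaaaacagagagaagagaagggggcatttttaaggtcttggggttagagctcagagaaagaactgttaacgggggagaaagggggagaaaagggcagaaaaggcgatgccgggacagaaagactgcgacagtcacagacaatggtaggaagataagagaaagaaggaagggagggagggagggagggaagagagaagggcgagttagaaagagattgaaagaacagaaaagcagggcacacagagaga

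The Kirrel window was 69.3% G and C with 28 CpG dinucleotides, and that of Thsd7a was 66.7% with 19. The Plce1 window was 41.0% with 8, and the Nphs1 window was 49.7% with 6, beside medians of 52.7% and 7 over 32817 promoters of the same length. Kirrel and Thsd7a each held 1 GC box, a motif found on either strand in 35.6% of all promoters, and Plce1 and Nphs1 held 0. Promoters in the table matched 6 of the 9 genes, Cd2ap and Ptpro being the others. None of the 6 held the WT1 motifs GCGGGGGCG or GCGTGGGNG on either strand, which 2.91% and 1.90% of all promoters hold. That says only that these letters are absent from these windows.

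Nphs1, nephrin, is the adhesion protein that defines the slit diaphragm and lies on chromosome 7. It measured 7.28, 7.24, 7.21, 7.29 and 7.51 in knockouts 1 to 5, against 7.43, 7.35, 7.32, 7.40 and 7.54 in controls 1 to 5. Knockouts 1 to 4 lay below every control and knockout 5 lay among the controls. The means were 7.31 ± 0.12 in knockouts and 7.41 ± 0.09 in controls (SD, n = 5 each), a difference of -0.10 (95% interval -0.24 to 0.03) that did not pass (limma adjusted p = 0.347). Without knockout 5 the difference was -0.15 and still did not pass (adjusted p = 0.0758).

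Kirrel (NEPH1), on chromosome 3 at 87078593 to 87174777, is the partner that binds nephrin across the slit. It measured 8.24, 8.30, 8.32, 8.17 and 7.90 in knockouts 1 to 5, against 7.96, 8.02, 7.79, 7.84 and 7.64 in controls 1 to 5. In 4 knockouts it exceeded every control, and knockout 5 fell within the control range. The means were 8.19 ± 0.17 in knockouts and 7.85 ± 0.15 in controls (SD, n = 5 each), a rise of 1.26-fold (95% interval 1.10 to 1.44; limma adjusted p = 0.0363). The two-sided exact permutation p was 0.0238, unadjusted. The call was close to the threshold: it was lost without any 1 of controls 3, 4 and 5 or knockouts 1, 2, 3 and 4 (differences 0.28 to 0.34, adjusted p 0.0645 to 0.0933). Of its paralogs, named here outside the rule for named genes, Kirrel2 differed by -0.06 (95% interval -0.19 to 0.06) and Kirrel3 by 0.02 (-0.12 to 0.16).

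Cd2ap encodes an adaptor that binds the nephrin tail and actin regulators, and it is also used in other epithelia and in T cells. It measured 10.66, 10.58, 10.71, 10.55 and 10.52 in knockouts 1 to 5, against 10.09, 10.36, 10.34, 10.54 and 10.43 in controls 1 to 5. Only knockout 5 fell below the highest control, control 4, and it did so by 0.02. The means were 10.60 ± 0.08 in knockouts and 10.35 ± 0.17 in controls (SD, n = 5 each), a difference of 0.25 (95% interval 0.09 to 0.41; limma adjusted p = 0.0538; exact permutation p = 0.0159). It passed when dim genes were left out of the fit (adjusted p = 0.0410), without control 4 (0.0270) and without knockout 5 (0.0423). Its paralog Sh3kbp1 (CIN85), an adaptor of the same build, rose to 6.84 ± 0.16 in knockouts, against 6.55 ± 0.06 in controls (difference 0.29, limma adjusted p = 0.0221).

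Synpo encodes synaptopodin, an actin-associated protein of foot processes and of dendritic spines. It ranged from 7.36 to 7.43 in knockouts and from 7.31 to 7.40 in controls, with 3 knockouts above every control. The difference was 0.04 (95% interval -0.04 to 0.12; limma adjusted p = 0.574). Its spread within groups (SD 0.04) was lower than that of all but 1.92% of genes. The limma interval leaves room for a rise of up to 1.09-fold only.

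Plce1 encodes phospholipase C epsilon, which cleaves a membrane phosphoinositide downstream of Ras-family GTPases. On chromosome 19 at 38481034 to 38785105, it measured 6.99, 7.08, 7.05, 6.82 and 6.97 in knockouts 1 to 5, against 6.72, 6.74, 6.67, 6.75 and 6.73 in controls 1 to 5. Every knockout lay above every control, with knockout 4 the nearest. The means were 6.98 ± 0.10 in knockouts and 6.72 ± 0.03 in controls (SD, n = 5 each), a rise of 1.20-fold (95% interval 1.11 to 1.30; limma adjusted p = 0.00804). The exact permutation p was 0.00794, the smallest that 5 against 5 kidneys allow. The call held whichever kidney was left out (adjusted p 0.00252 to 0.0257).

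Ptpro encodes GLEPP1, a receptor tyrosine phosphatase of the foot process membrane. It measured 7.49, 7.54, 7.50, 7.49 and 7.81 in knockouts 1 to 5, against 7.78, 7.58, 7.58, 7.72 and 7.82 in controls 1 to 5. As with Nphs1, knockouts 1 to 4 lay below every control while knockout 5 was close to the highest control. The means were 7.57 ± 0.14 in knockouts and 7.70 ± 0.11 in controls (SD, n = 5 each), and the difference of -0.13 (95% interval -0.28 to 0.03) did not pass (limma adjusted p = 0.312). Without knockout 5 it was -0.19 (adjusted p = 0.0558). Ptprj, a receptor phosphatase of the same subtype, rose to 10.02 ± 0.03 in knockouts, against 9.86 ± 0.05 in controls (difference 0.16, limma adjusted p = 0.0196).

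Podxl encodes podocalyxin, the charged sialomucin of the podocyte surface, which is also made by endothelium. It ranged from 9.98 to 10.15 in knockouts and from 10.01 to 10.11 in controls, so the knockouts spanned the whole control range. The difference was -0.01 (95% interval -0.10 to 0.08; limma adjusted p = 0.884). Ezr, the ezrin that links podocalyxin to actin and that tubule cells also use, rose to 11.37 ± 0.04 in knockouts, against 11.20 ± 0.08 in controls (difference 0.17, limma adjusted p = 0.0363).

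Thsd7a encodes a membrane protein with thrombospondin repeats on podocyte foot processes. On chromosome 6 at 12311608 to 12749253, it measured 7.66, 7.74, 7.80, 7.41 and 7.60 in knockouts 1 to 5, against 7.26, 7.33, 7.26, 7.40 and 7.36 in controls 1 to 5. Every knockout lay above every control, although knockout 4 exceeded control 4 by only 0.0083. The means were 7.64 ± 0.15 in knockouts and 7.32 ± 0.06 in controls (SD, n = 5 each), a rise of 1.25-fold (95% interval 1.13 to 1.38; limma adjusted p = 0.0121; exact permutation p = 0.00794). It passed whichever kidney was left out (adjusted p 0.00220 to 0.0375).

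Wt1, the zinc finger transcription factor of podocytes and of mesothelium, lies on chromosome 2. It ranged from 7.33 to 7.47 in knockouts and from 7.30 to 7.43 in controls, with 3 knockouts above every control and the others within their range. The difference was 0.04 (95% interval -0.05 to 0.14; limma adjusted p = 0.585).

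**Figure D1:**
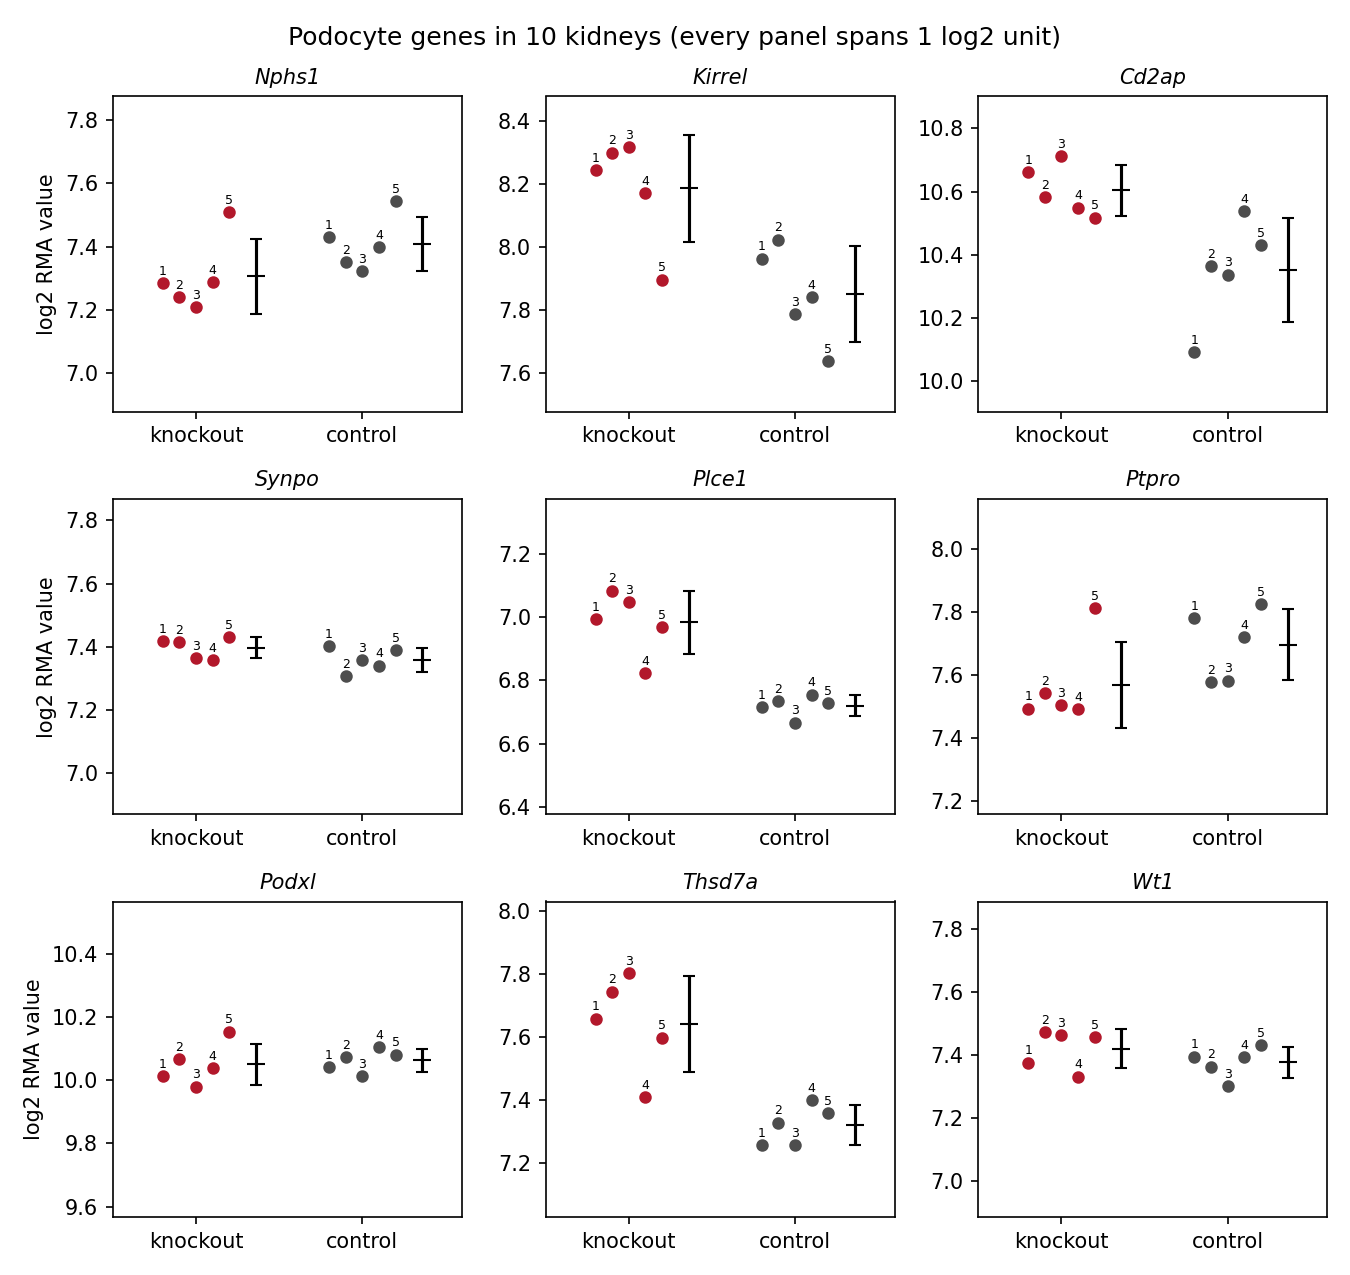
RMA log2 values (y axis) of the 9 podocyte genes in 5 knockout (left, red) and 5 control (right, grey) kidneys, numbered by replicate, with the mean and SD beside them; every panel spans 1 log2 unit. The groups are separate for Plce1 and Thsd7a, and knockout 5 stands above the other knockouts for Nphs1 and Ptpro.

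Whether the genes moved differently from nephrin was tested by subtracting the Nphs1 value of each kidney from every gene and repeating the fit over all genes. This takes the Nphs1 difference of -0.10, which did not pass, away from every gene, so all differences move up by the same amount. Relative to Nphs1, 4 of the 8 other genes were higher in knockouts and 0 were lower, against 6.56% and 0.564% of all genes. The share of all genes that was higher depended on single kidneys: it was 18.9% without knockout 5, 4.37% without knockout 2, 4.28% without knockout 3 and 3.86% without control 5. Kirrel differed by 0.44 (SE 0.12, limma adjusted p = 0.0213) and Thsd7a by 0.43 (SE 0.10, limma adjusted p = 0.00611). Plce1 differed by 0.37 (SE 0.09, limma adjusted p = 0.0118) and Cd2ap by 0.36 (SE 0.10, limma adjusted p = 0.0214).

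In single kidneys, the Kirrel value minus the Nphs1 value was 0.96, 1.06, 1.11, 0.88 and 0.39 in knockouts 1 to 5, against 0.54, 0.67, 0.47, 0.44 and 0.10 in controls 1 to 5. The fifth kidney of each group was the lowest, and knockout 5 lay below 4 of the 5 controls. For Thsd7a the same quantity was 0.09 to 0.60 in knockouts and -0.19 to 0.00 in controls, with no overlap. For Plce1 it was -0.54 to -0.15 in knockouts and -0.82 to -0.61 in controls, again with no overlap. The share of all genes without overlap after this subtraction was not counted. Differences between 2 genes of an array are relative shifts, not amounts of one gene over another.

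Ptpro kept closest to nephrin, with a relative difference of -0.02 (95% interval -0.18 to 0.13). Podxl (0.09), Synpo (0.14) and Wt1 (0.15) did not pass either, and their intervals reached up to 0.24, 0.31 and 0.31. With the replicate number as a block Synpo passed (limma adjusted p = 0.0410), and 17.5% of all genes were then higher. In the fit without a block, the count past the threshold was 1 without knockout 2 (Thsd7a), and 2 without control 5 or without knockout 3. The fit relative to Nphs1 carries the error of Nphs1 into every gene.

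**Figure D2:**
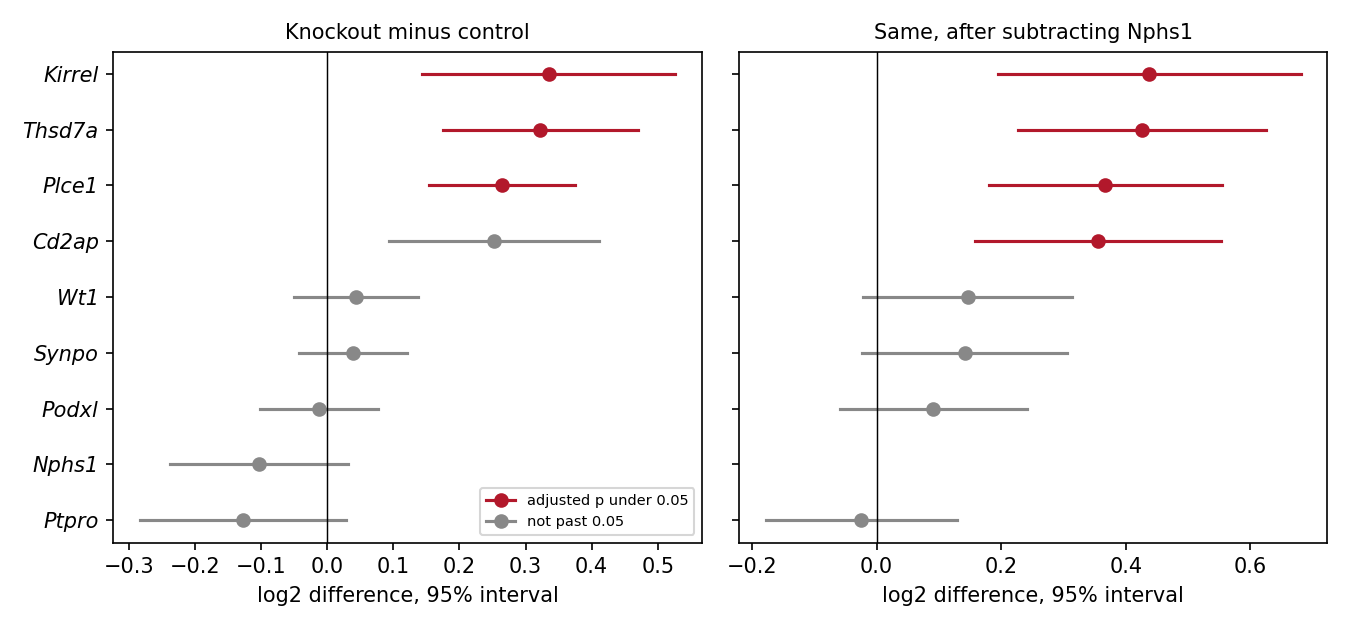
Log2 difference, knockout minus control, with its 95% interval (x axis) for each gene (y axis), as measured (left) and after subtracting Nphs1 in each kidney (right); red marks an adjusted p under 0.05. Kirrel, Thsd7a and Plce1 are red in both panels, and Cd2ap only in the right one, where every difference is moved up by the same amount.

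Within the groups, the genes did not vary as one block. After each gene's group mean was removed, 23 of the 36 pairs had a positive Pearson r over the 10 kidneys, with a median of 0.15. Plce1 and Thsd7a went together most closely (r = 0.94, Spearman rho = 0.92, exact permutation p = 0.00208 within groups, adjusted over 36 pairs p = 0.0750), and r was 0.91 without the 2 kidneys farthest from the median deviation of Plce1. It was 0.96 among knockouts and 0.82 among controls. Knockout 4 was the lowest knockout for both genes.

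Nphs1 and Ptpro formed another close pair (r = 0.92, rho = 0.73, exact permutation p = 0.00417, adjusted p = 0.0750), with r = 0.68 without the 2 kidneys farthest from the median deviation of Nphs1. Nphs1 and Kirrel ran in opposite directions (r = -0.83, rho = -0.61, exact permutation p = 0.0179, adjusted p = 0.150). That relation rested on 2 kidneys, control 5 and knockout 5, as r was -0.10 without them. The permutations treated same-numbered kidneys of the 2 groups as unrelated. None of the 36 pairs passed after adjustment, and 10 had an unadjusted exact p under 0.05.

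Among 13433 other genes with signals above the negative control median on every array, sex chromosome genes left out, those whose deviations most resembled Nphs1 were Fmnl1 (r = 0.97), Helq (0.95) and Rdh16 (0.95). Those nearest to Kirrel were Sema7a (0.99), Adgrl4 (0.98) and Atp10a (0.98). Thsd7a was nearest to Plce1, followed by Crip1 (0.92) and Rab12 (0.92). The genes nearest to Thsd7a were Son (0.95), Plce1 (0.94) and Zfp362 (0.93). These are the highest of many correlations over 10 kidneys, and the nearest genes other than Plce1 and Thsd7a did not pass the test between knockouts and controls (adjusted p 0.0661 to 0.924).

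**Figure D3:**
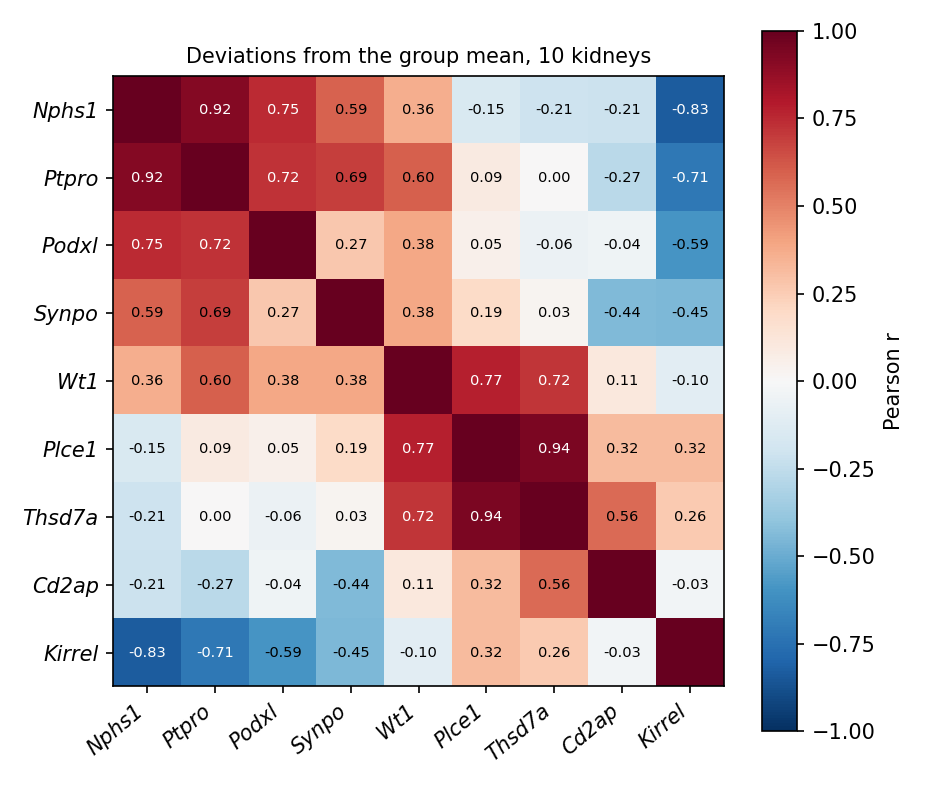
Pearson r between the podocyte genes over 10 kidneys, after removing each gene's group mean (both axes list the genes; red is positive, blue negative). Plce1 with Thsd7a (0.94) and Nphs1 with Ptpro (0.92) are the closest pairs, and Kirrel is opposite to Nphs1 (-0.83).

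Of 33 other genes of the podocyte lists measured, 5 rose, 1 fell and 27 did not pass, with a median difference of 0.05. The lists hold genes that other kidney cells also use, with control means as high as 11.46 (Actn4), against 7.41 for Nphs1. Which cells gave the signals of the 33 was not tested. The percent that rose was 15.2, beside 5.35% of all genes. In the fit without dim genes 8.91% of 19563 genes rose, and the 33 were not counted there. By role, 1 of 11 other slit diaphragm genes rose, the giant cadherin Fat1, at 9.62 ± 0.15 in knockouts and 9.35 ± 0.09 in controls (difference 0.27, limma adjusted p = 0.0356). Among 11 cytoskeleton and adhesion genes 1 rose, the motor gene Myo1e (9.55 ± 0.12 in knockouts and 9.30 ± 0.07 in controls, limma adjusted p = 0.0171). Among 5 transcription factors Foxc2 rose (6.82 ± 0.08 in knockouts and 6.63 ± 0.04 in controls, limma adjusted p = 0.0290).

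Among 6 secreted, surface and cell cycle genes, the guidance receptor gene Robo2 rose by 0.33 (limma adjusted p = 0.00796). Pla2r1, whose product is another antigen of membranous nephropathy in humans, rose by 0.22 (limma adjusted p = 0.0353). Whether podocytes gave the Pla2r1 signal in these mouse kidneys was not tested. Vegfa, the growth factor that podocytes and tubules supply to endothelium, fell to 10.18 ± 0.09 in knockouts, against 10.34 ± 0.03 in controls (limma adjusted p = 0.0465). Of 6 chains of the glomerular basement membrane 1 fell, the collagen gene Col4a4, which is also used by some tubules (9.10 ± 0.04 in knockouts and 9.39 ± 0.07 in controls, limma adjusted p = 0.00138). Among 24 relatives and partners of the 9 genes, 3 rose (Sh3kbp1, Ezr and Ptprj) and 1 fell, the phospholipase gene Plcd4. The signal of Plcd4 was dim, exceeding 39.4% of the negative control probe sets in knockouts and 43.5% in controls.

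Markers of other cells moved beside these genes. All 7 measured fibroblast genes rose (median difference 1.28), and their mean per kidney, relative to the control mean, was 0.76 to 1.64 in knockouts and -0.20 to 0.12 in controls. Decorin (Dcn) rose by 1.33 and the collagen gene Col3a1 by 1.28, fibronectin (Fn1) by 1.37. Lum also passed, with a dim control signal that exceeded 45.0% of the negative control probe sets. Knockouts 4 and 5 had the lowest fibroblast means of the knockouts (0.82 and 0.76). Knockout 4 was also the lowest knockout for Plce1 and Thsd7a, and knockout 5 the lowest for Kirrel.

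All 12 phagocyte genes rose (median 0.92), with means of 0.49 to 1.23 in knockouts and -0.12 to 0.14 in controls; Mpeg1, Mrc1, Ctss and C1qb rose by 1.47, 1.41, 1.31 and 1.27. Of 10 genes of parietal and simple epithelium, 8 rose (median 0.36), led by Krt19 (1.49), Cd44 (1.30), Krt18 (0.95) and Cd24a (0.47), with means of 0.46 to 0.67 in knockouts and -0.12 to 0.12 in controls. Pax2 (0.02) and Pax8 (0.18), named here outside the rule for named genes, did not pass. Whether the rises came from parietal cells or from other cells was not tested. Of 9 mesangial and mural genes, 4 rose and 0 fell (median 0.28): Pdgfrb by 0.47, Tagln by 0.43, Des by 0.32 and Rgs5 by 0.28. Their mean per kidney was 0.09 to 0.32 in knockouts and -0.14 to 0.11 in controls.

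None of 11 endothelial genes passed by limma, and at an unadjusted p under 0.05 there was 1 higher (Plat, 0.30) and 1 lower (Kdr, -0.18). Their means were -0.15 to 0.21 in knockouts and -0.16 to 0.12 in controls. In each group the fifth kidney had the lowest endothelial mean, and it was also the lowest for Kirrel. Of 7 mesothelial genes only Upk1b, which urothelium also expresses, rose (1.39). The median of the list was -0.01, and its mean per kidney, which includes Upk1b, was 0.14 to 0.22 in knockouts and -0.22 to 0.13 in controls. Among 11 tubule genes 1 rose (Aqp2, 0.94) and 5 fell, led by Slc4a1 (-0.74), Slc5a2 (-0.46) and Umod (-0.45), with means of -0.27 to -0.10 in knockouts and -0.05 to 0.03 in controls. The part of these cells in the rises of Kirrel, Plce1 and Thsd7a was not tested.

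The rises were also measured against the mean of the 33 other genes of the podocyte lists. Their control means ran from 4.73 (Trpc6) to 11.46 (Actn4), against 7.41 for Nphs1, and Vegfa among them is also made by tubules. Whether their mean follows the podocyte content of a kidney was not tested. Scaling each array to the mean of the 33 other podocyte genes lowers the difference of every gene by the same amount, a shift of -0.08. On that scale Kirrel differed by 0.26 (limma adjusted p = 0.0384), Thsd7a by 0.25 (limma adjusted p = 0.0251) and Plce1 by 0.19 (limma adjusted p = 0.0298). Of all genes, 3.78% were then higher and 13.2% lower. Nphs1 then differed by -0.18 and Ptpro by -0.20, neither past the threshold (limma adjusted p = 0.0983 and 0.0882), and Synpo and Wt1 stood at -0.04 and -0.03, a change of sign that the shift itself produces.

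**Figure D4:**
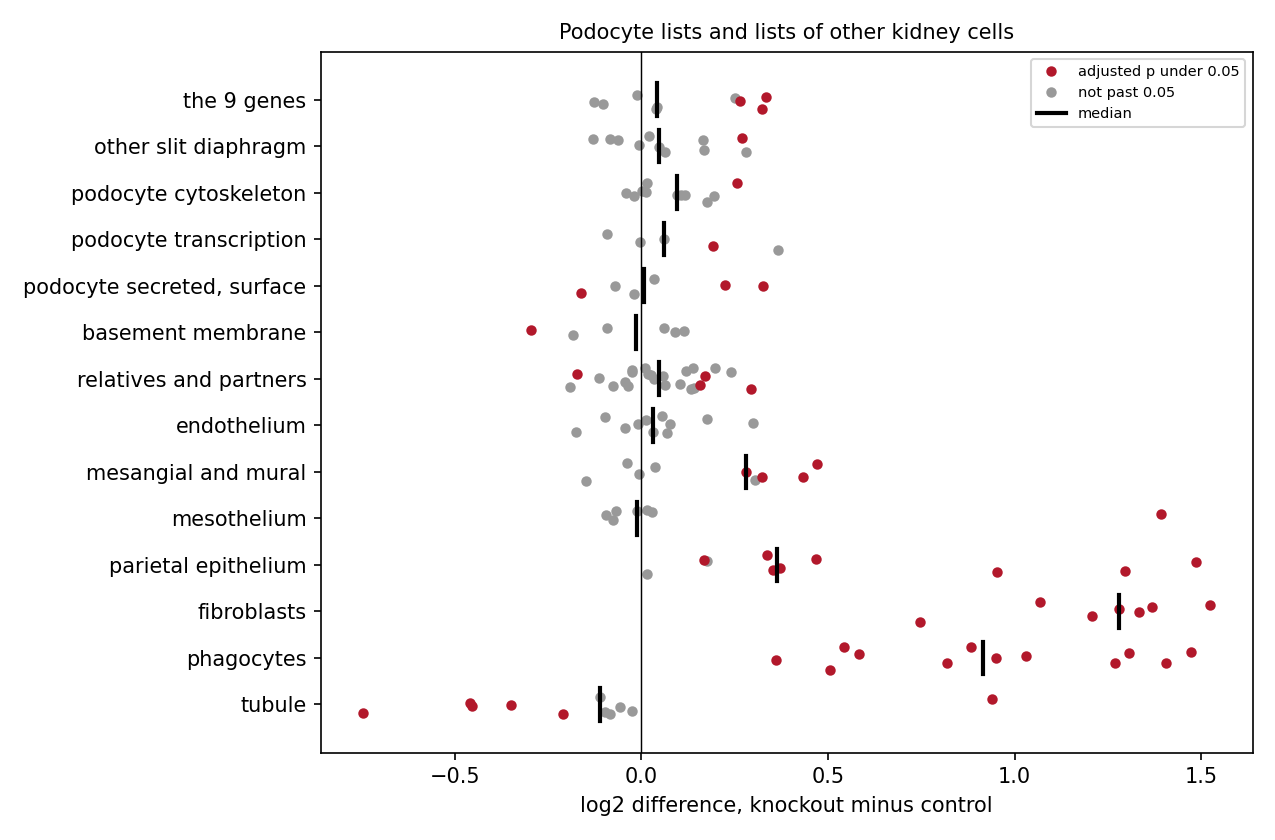
Log2 difference, knockout minus control (x axis), of single genes in the podocyte lists and in lists of other kidney cells (y axis); red marks an adjusted p under 0.05 and the black bar is the median of a list. Podocyte lists have medians of 0.01 to 0.09, against 1.28 for fibroblasts and 0.92 for phagocytes.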

How the data were processed

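The authors deposited 1 log2 value per transcript cluster and kidney, computed with RMA (mm10 build), per the submitters' processing notes, which name no version or filter. The log2 scale was taken from the values (array medians 5.35 to 5.42). Rows were named through the platform annotation, with 827 symbols updated through Entrez identifiers; 30604 of 72688 rows had 1 symbol, 2146 had several and 39938 had none, and the last 2 kinds were left out. Rows of 1 gene were averaged. Knockouts and controls were compared with limma 3.58.1 in R 4.3.3 (lmFit, eBayes with a mean-variance trend, two-sided, Benjamini-Hochberg adjustment over 30142 genes, threshold 0.05), with no covariate. Levels were set against 5222 negative control probe sets. Exact permutation tests enumerated all splits of 5 against 5 kidneys; those of pairs of genes permuted within groups. Promoters are from RefSeq, and Python 3.11.15 joined the tables. Arrays carry no read depth, so their number limits the precision. The labels give separate mice as replicates.

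The 9 genes and the lists were chosen with earlier results of these data known. Named genes were the 9, Stk11, from each list the most changed genes past the threshold (at most 4, or, where none passed, the 2 of lowest p), and the 3 genes most like Nphs1 and each member past the threshold. Alternatives were other scalings between arrays, the brightest row, a filter on dim genes, no variance trend, array weights, the replicate number as a block, and leaving out each kidney.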

Additional observations from a re-analysis of the deposited data

Results flagged for a closer look

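A kidney stood apart from the other 4 of its group in 5 of 108 sets of 5 values checked. Chance flags about 1 in 20 independent sets, but these sets are not independent, since several of the genes vary together, and 3 of the 5 fall on knockout 5, whose array weight (0.68) was the lowest of the knockouts. The measure is the gap to the nearest kidney divided by the range of the group. Knockout 5 was high for Nphs1 (7.51 against 7.21 to 7.29 in the other knockouts, ratio 0.732) and for Ptpro (7.81 against 7.49 to 7.54, ratio 0.840), and low for Adgrl4 (9.45 against 9.78 to 9.91, ratio 0.734). Knockout 4 was low for Ezr (11.30 against 11.37 to 11.39, ratio 0.737). Control 5 was low for Sh3kbp1 (6.44 against 6.55 to 6.59, ratio 0.754).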

How the results depend on the processing

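Plce1 and Thsd7a passed under all 8 alternatives that kept every kidney and without any single kidney, and Kirrel passed under the 8 but in only 3 of 10 fits without a kidney (differences 0.28 to 0.41, adjusted p 0.00397 to 0.0933). Cd2ap passed with dim genes left out (difference 0.25), where fewer genes were tested, and ranged from 0.19 to 0.30 without a kidney. Nphs1 and Ptpro passed under no alternative. Scaled to the other podocyte genes, a setting that shifts every gene by -0.0760, Synpo (-0.0375) and Wt1 (-0.0328) reversed with that shift, and Podxl ranged from -0.0382 to 0.00517 without a kidney, reversing without knockout 3. The count of all genes that fell, 806, became 3964 with the same shift. It was 1299 after quantile normalisation and 437 to 1470 without a kidney; the cause of these was not tested. Relative to Nphs1, the range without a kidney was 0.35 to 0.56 for Kirrel, 0.29 to 0.43 for Cd2ap and 0.33 to 0.42 for Plce1 (which missed the threshold without knockout 2, adjusted p = 0.0542), the count of the 8 genes that were higher ranged from 1 to 4, and that of all genes higher from 1164 to 5696, against 1977.

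Replicate numbers are shared between the groups, but the labels do not say that they pair mice. Deviations of same-numbered kidneys correlated at 0.25, 0.31, 0.10, -0.08 and 0.19, beside a median of -0.03 for other pairings, and 4 of 5 knockouts correlated best with their own number, a hint of pairing from the data. As the fourth correlation was below 0.1 and no label says which mice shared a litter or day, the fit without the block was kept. These values do not settle whether the numbers pair mice. Under every replicate number, the knockout was lower than the control for Nphs1 and Ptpro and higher for Kirrel. With the replicate block Kirrel (adjusted p = 0.00596), Plce1 (0.0197) and Thsd7a (0.0312) still passed. Nphs1 (0.127), Ptpro (0.164) and Cd2ap (0.0849) did not pass with it. Relative to Nphs1 the block brought Synpo past the threshold (0.14, adjusted p = 0.0410), so that 5 of the 8 genes were higher, and called 5277 genes higher and 365 lower. The small number of arrays limits what can be seen: a difference that missed the threshold is not shown to be absent.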
